A study of Danio rerio with 16 samples.

Results

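The circadian clock activators and repressors described here are 8 zebrafish genes, chosen as every probe set that the probe-to-gene table assigns to bmal1a, bmal1b, rorcb, per2, ciarta, nr1d2b, bhlhe40 or bhlhe41. Their Entrez gene numbers are 58098 for bmal1a, 352935 for bmal1b, 562258 for rorcb, 140633 for per2, 564009 for ciarta, 30271 for nr1d2b, 324413 for bhlhe40 and 563771 for bhlhe41. The rule used gene names only and found 10 probe sets, for 8 of 8 names, among the 7922 probe sets tested. The names themselves were chosen with earlier results of these data known, so counts set beside all probe sets are a description. The genes per2 and nr1d2b have 2 probe sets each, and the other 6 genes have 1 each. The deposited table had been filtered on low values before deposit, and any further probe sets of these genes were not analysed here. Of the 10, 9 had an interquartile range of at least 0.5 over the pools, as had 854 of the 7922 probe sets, and bhlhe40 did not.

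Whole-brain RNA of adult zebrafish, 4 to 6 months old, was hybridized to 16 Affymetrix arrays, with 2 male and 2 female pools for each of the strains labelled TM1, SH, Nadia and Gaighatta. Each pool combined the brains of the fish of a single group tank, and the fish had been through behavior observations. The design text gives 2 to 5 fish per pool. The study's methods instead give 4 fish per tank, with slightly different numbers in some tanks, and name no tank of 2. TM1, a GFP transgenic line driven by a β-actin promoter, and SH (Scientific Hatcheries) carry the rearing history Domesticated, while Nadia and Gaighatta, derived from wild fish in India, carry Wild. All fish were kept at 28 °C under 14 h of light and 10 h of dark, and the sources used here give no hour of sampling for any tank.

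The labels of strain need a caution that touches every direction below. The GFP probe set was at 8.58 to 10.46 in the pools labelled Gaighatta and at no more than 3.36 in any other pool. The transgene belongs to TM1, but pools with that label showed no such signal. In the study's own listings of these values, TM1-labelled arrays appear as Gaighatta, SH-labelled ones as Nadia, Nadia-labelled ones as SH and Gaighatta-labelled ones as TM1. Strain names below are those of the deposited labels, and under the names of the study's listings each direction by rearing history is the reverse. Over all probe sets, arrays of the same label correlated at 0.967 to 0.988 and arrays of different labels at 0.936 to 0.980.

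The vertebrate clock is a transcriptional loop. Bmal proteins pair with Clock and switch on genes that carry E-box elements, among them the genes of period and cryptochrome proteins, whose products feed back to repress Bmal and Clock. A second loop acts on bmal genes themselves, where Ror receptors activate and Rev-erb receptors repress through a shared element. In zebrafish nearly every tissue, the brain included, holds clocks that respond to light, and per2 is a well known light-induced gene. Levels of these transcripts rise and fall over the day, so a whole-brain value depends on the hour of sampling. Values are RMA expression on the log2 scale, on which a difference of 1 is a change by a factor of 2. In whole-brain pools, fewer cells of a type and less RNA per cell cannot be told apart.

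Among the strains, the clock genes formed opposed sets. In TM1-labelled brains the activators rorcb and bmal1a were high and the repressors ciarta, nr1d2b, bhlhe41 and per2 were low, and in Gaighatta-labelled brains the reverse held. Each pool is a single tank of unknown hour of sampling, and the part of that hour in the differences between strain labels was not tested. Of the 10 probe sets, 9 differed in at least 1 of the 6 strain pairs at an adjusted p under 0.05, against 34.6% of all probe sets tested, and bmal1b was the exception. The largest difference between strain means had a median of 1.19 log2 units over the 10 probe sets, against 0.31 over all probe sets tested. The log2 values of every pool are plotted by strain in the panels of single probe sets.

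**Figure D1:**
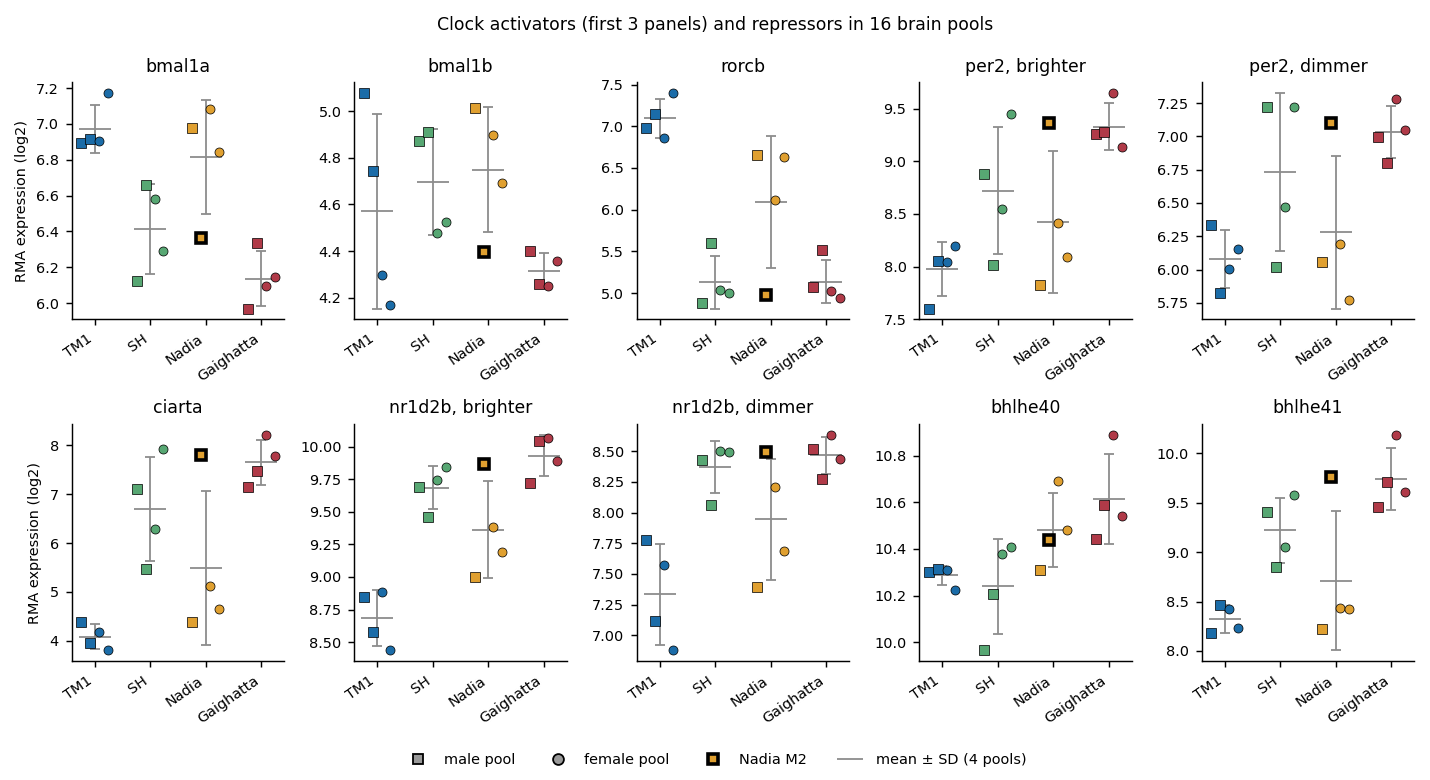
RMA expression (log2, vertical axis) of the 10 probe sets in 16 brain pools, by strain label (horizontal axis); squares are male pools, circles female pools, grey marks the mean ± SD of 4 pools, and the thick outline marks the second male pool of Nadia. For ciarta, all 4 TM1-labelled pools (3.80 to 4.38) lie below all 4 Gaighatta-labelled pools (7.14 to 8.21), and for rorcb all 4 TM1-labelled pools (6.86 to 7.40) lie above them (4.95 to 5.51).

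The activators come first, and the values of a strain are always listed as male pools 1 and 2 (M1, M2), then female pools 1 and 2 (F1, F2). Bmal1a, 1 of a pair of zebrafish Bmal paralogs measured here, was at 6.89, 6.92, 6.91 and 7.17 in TM1-labelled pools and at 6.12, 6.66, 6.58 and 6.29 in SH-labelled pools. It was at 6.98, 6.36, 7.08 and 6.85 in Nadia-labelled pools and at 5.97, 6.34, 6.10 and 6.14 in Gaighatta-labelled pools. The TM1-labelled pools lay above every SH- and Gaighatta-labelled pool with no overlap, whereas the Nadia-labelled pools spread from just above the highest Gaighatta value to the upper TM1 values. Bmal1a was 0.83 higher in TM1 than in Gaighatta (SE 0.15, limma adjusted p = 0.00107), which is 1.78-fold, and 0.56 higher in TM1 than in SH (adjusted p = 0.0354). It was 0.68 higher in Nadia than in Gaighatta (adjusted p = 0.00607). In the order of the strain means, TM1, Nadia, SH and Gaighatta from high to low, no 2 neighbours differed at the threshold.

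Bmal1b, the other Bmal paralog, gave a lower signal on the array, with a mean of 4.58, and showed no strain difference past the threshold. Its values were 5.08, 4.74, 4.30 and 4.17 in TM1-labelled pools and 4.87, 4.91, 4.48 and 4.53 in SH-labelled pools. Nadia-labelled pools were at 5.01, 4.40, 4.90 and 4.69, and Gaighatta-labelled pools at 4.40, 4.26, 4.25 and 4.36. The groups overlapped in all pairs but SH and Gaighatta, and the spread was widest within TM1 (SD 0.42, n = 4) and narrowest within Gaighatta (SD 0.07, n = 4). The difference of TM1 from Gaighatta was 0.25, with a 95% interval of -0.12 to 0.63, so a difference as large as the lower bound of bmal1a's own interval, 0.52, was not excluded. The largest of its strain differences was 0.43, between Nadia and Gaighatta (adjusted p = 0.120).

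Rorcb, a Ror receptor gene and an activator of the bmal loop, separated the strains into high and low groups. It was at 6.97, 7.14, 6.86 and 7.40 in TM1-labelled pools and at 4.89, 5.60, 5.04 and 5.00 in SH-labelled pools. Nadia-labelled pools had 6.65, 4.97, 6.11 and 6.63, and Gaighatta-labelled pools had 5.07, 5.51, 5.02 and 4.95. All TM1-labelled pools lay above all pools of the other 3 labels, and 3 of the 4 Nadia-labelled pools lay above all SH- and Gaighatta-labelled ones. Rorcb was 1.96 higher in TM1 than in Gaighatta (SE 0.28, 3.88-fold, adjusted p = 0.000187) and 1.96 higher in TM1 than in SH (adjusted p = 0.000728). It was 0.95 higher in Nadia than in Gaighatta (adjusted p = 0.0326). SH and Gaighatta differed by -0.01, with a 95% interval of -0.60 to 0.59, and TM1 and Nadia by 1.00 (adjusted p = 0.0615).

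Among the repressors, ciarta varied most, with a range of 4.41 over the 16 pools and an interquartile range above that of 99.9% of all probe sets tested. Its mouse counterpart encodes Chrono, which binds Bmal1 and represses the Clock and Bmal1 complex. Ciarta was at 4.38, 3.96, 4.18 and 3.80 in TM1-labelled pools and at 7.10, 5.47, 6.28 and 7.92 in SH-labelled pools. Nadia-labelled pools were at 4.38, 7.79, 5.11 and 4.66, and Gaighatta-labelled pools at 7.14, 7.48, 8.21 and 7.77. The TM1 pools lay below all SH and Gaighatta pools, and the highest TM1 and the lowest Nadia value were equal to 2 decimals. Nadia spread over most of the range and SH over its upper part. Ciarta fell by 3.57 in TM1 relative to Gaighatta (SE 0.59, adjusted p = 0.000587), which is 11.8-fold, and the difference was -2.61 for TM1 against SH (adjusted p = 0.0164) and -2.16 for Nadia against Gaighatta (adjusted p = 0.0221). The strain means ran TM1, Nadia, SH and Gaighatta from low to high, and no 2 neighbours in this order differed at the threshold (adjusted p = 0.220, 0.265 and 0.301).

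Nr1d2b encodes a Rev-erb receptor, the repressor that opposes Ror at bmal genes, and its brighter probe set gave the smallest adjusted p among the clock genes. By the brighter probe set it was at 8.85, 8.57, 8.89 and 8.44 in TM1-labelled pools and at 9.69, 9.46, 9.75 and 9.85 in SH-labelled pools. Nadia-labelled pools had 8.997, 9.87, 9.39 and 9.20, and Gaighatta-labelled pools had 9.72, 10.05, 10.06 and 9.89. Every TM1-labelled pool lay below every pool of the other labels. The difference of TM1 from Gaighatta was -1.24 (SE 0.16, adjusted p = 6.48e-05), from SH -0.999 (adjusted p = 0.00160) and from Nadia -0.68 (adjusted p = 0.0277), and Nadia was 0.57 lower than Gaighatta (adjusted p = 0.0249). The dimmer probe set gave -1.13 for TM1 against Gaighatta (adjusted p = 0.00187) and -1.04 for TM1 against SH (adjusted p = 0.0103). It did not pass the threshold for TM1 against Nadia (-0.61, adjusted p = 0.141) or for Nadia against Gaighatta (-0.52, adjusted p = 0.129). The probe sets of nr1d2b correlated at 0.948 over the 16 pools.

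Per2, whose product represses Bmal and Clock together with cryptochromes, followed the same order of strain means as ciarta by the brighter probe set. Its values by that probe set were 7.60, 8.05, 8.04 and 8.19 in TM1-labelled pools and 8.88, 8.01, 8.54 and 9.44 in SH-labelled pools. Nadia-labelled pools were at 7.82, 9.36, 8.41 and 8.09, and Gaighatta-labelled pools at 9.26, 9.28, 9.65 and 9.13. TM1 and Gaighatta did not overlap, and both SH and Nadia overlapped with each of them. Per2 was 1.36 lower in TM1 than in Gaighatta by this probe set (SE 0.30, adjusted p = 0.00429) and 0.95 lower by the dimmer one (SE 0.27, adjusted p = 0.0205). By the dimmer one the call was lost without the second male pool of TM1 (-0.87, adjusted p = 0.0546) or the first female pool of Gaighatta (-0.87, adjusted p = 0.0584). In no other strain pair did either probe set of per2 pass, and Nadia against Gaighatta came nearest (-0.91, adjusted p = 0.0506). The pair of per2 probe sets correlated at 0.894 over the pools.

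Bhlhe40 and bhlhe41 encode the zebrafish counterparts of Dec1 and Dec2, repressors that compete with Bmal and Clock for E-boxes. Bhlhe41 was at 8.18, 8.47, 8.43 and 8.23 in TM1-labelled pools and at 9.40, 8.85, 9.05 and 9.57 in SH-labelled pools. Nadia-labelled pools had 8.23, 9.76, 8.44 and 8.42, and Gaighatta-labelled pools had 9.46, 9.71, 10.19 and 9.61. The TM1 pools lay below all SH and Gaighatta pools, and 3 of the 4 Nadia pools lay within the TM1 range. Bhlhe41 was 1.42 lower in TM1 than in Gaighatta (SE 0.26, adjusted p = 0.00137), and 1.03 lower in Nadia than in Gaighatta (adjusted p = 0.0147). It missed the threshold for TM1 against SH (-0.89, adjusted p = 0.0527).

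Bhlhe40 was the brightest of the clock genes, with a mean of 10.41, and had the smallest interquartile range. It was at 10.30, 10.31, 10.31 and 10.23 in TM1-labelled pools and at 9.97, 10.21, 10.38 and 10.41 in SH-labelled pools. Nadia-labelled pools were at 10.31, 10.44, 10.69 and 10.48, and Gaighatta-labelled pools at 10.44, 10.59, 10.89 and 10.54. TM1 and SH lay below Gaighatta with no overlap, while Nadia overlapped with all 3. Its one strain difference past the threshold was -0.38 between SH and Gaighatta (SE 0.12, adjusted p = 0.0349), and TM1 against Gaighatta missed it (-0.33, adjusted p = 0.0546). The SH call was lost without any 1 of 5 pools, male pools 1 and 2 of SH and F1, F2 and M2 of Gaighatta (-0.28 to -0.40, adjusted p = 0.0547 to 0.122). Its interquartile range of 0.19 exceeded that of 28.8% of all probe sets tested, whereas those of the other 9 probe sets exceeded 90.5% or more.

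Counted by strain pair, TM1 against Gaighatta held the most calls. In that pair 8 of 10 probe sets differed, against 20.9% of all probe sets tested. Higher in TM1 were 2, bmal1a and rorcb (8.27% of all were higher), and lower were 6, the probe sets of ciarta, nr1d2b, per2 and bhlhe41 (12.6% of all were lower). TM1 against SH had 5 calls (6.64% of all probe sets), with bmal1a and rorcb higher in TM1 and ciarta and both nr1d2b probe sets lower. Nadia against Gaighatta had 5 (14.3%), with bmal1a and rorcb higher in Nadia and ciarta, bhlhe41 and 1 nr1d2b probe set lower. TM1 against Nadia had 1 (3.17%), SH against Gaighatta 1 (17.1%) and SH against Nadia 0 by limma (5.66%), where 2 probe sets had an unadjusted p under 0.05. The single call for TM1 against Nadia, nr1d2b, was lost without TM1 F2, TM1 M2, Nadia F1 or Nadia M2, and 2 calls were made without Nadia F2 or Nadia M1. Nadia against Gaighatta had 3 calls without Nadia F1 or Gaighatta F2, 2 without Nadia F2, and 1 without Nadia M1 or Gaighatta F1. TM1 against SH rested in part on the second female pool of SH, without which 3 calls were made. These strain pairs share pools, so their counts are not independent of each other.

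**Figure D2:**
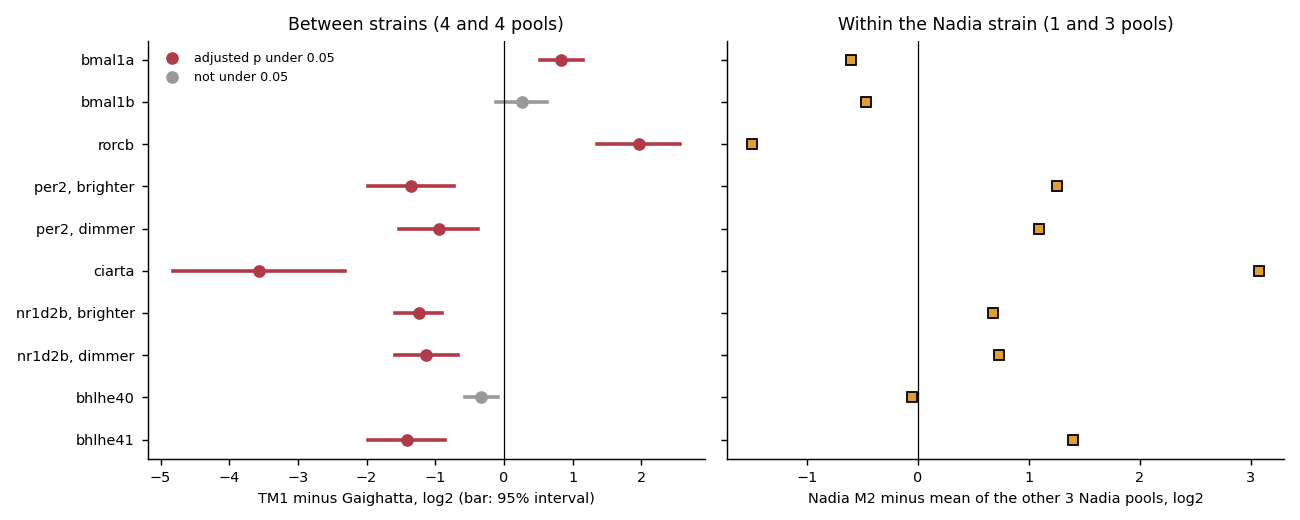
Left, difference of TM1 minus Gaighatta on the log2 scale with its 95% interval for each probe set (red, adjusted p under 0.05); right, Nadia M2 minus the mean of the other 3 Nadia pools on the same kind of scale, without a test. The activators bmal1a and rorcb lie right of 0 on the left (0.83 and 1.96) and left of 0 on the right (-0.60 and -1.49), and ciarta is the farthest point on both sides (-3.57 and 3.08).

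The second male pool of Nadia (M2) lay away from the mean of the other Nadia pools in most of these genes. A check for pools far from the others of their strain, given at the end, flagged M2 in 1 of 10 clock probe sets, bhlhe41 (1.59% of all). M2 was the highest or the lowest of the 4 Nadia pools in 9 of 10 clock probe sets, against 54.7% of all probe sets tested. Such counts also reached 8 of 10 in TM1 F2 (45.8% of all), Nadia M1 (45.6%) and Gaighatta F1 (44.4%), so this count alone is not particular to M2. Set against the mean of the other 3 Nadia pools, M2 was 3.08 higher for ciarta, 1.40 for bhlhe41, 1.25 and 1.09 for the per2 probe sets, and 0.67 and 0.73 for those of nr1d2b. It was lower by 1.49 for rorcb, by 0.60 for bmal1a and by 0.47 for bmal1b, and bhlhe40 differed by -0.06. Its ciarta value, 7.79, lay next to the Gaighatta mean of 7.65, where the other 3 Nadia pools averaged 4.72 and the TM1 pools 4.08. The activators thus lay low and the repressors high in this pool, the pattern of Gaighatta-labelled brains.

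Over all other probe sets M2 did not stand with Gaighatta. Its mean correlation was 0.979 with the other Nadia pools, 0.975 with SH, 0.971 with TM1 and 0.961 with Gaighatta. The means of the 8 marker lists of cell types in M2 lay within the range set by the other Nadia pools for neurons (10.67), radial glia (10.67), microglia (6.71), pituitary (6.33) and pineal gland and photoreceptors (5.42). M2 was at the end of the Nadia range for myelin (highest, 8.34), red blood cells (highest, 9.73) and meninges (lowest, 8.06). The part of cell composition in its clock values was not tested, nor was that of the hour of sampling.

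The counts of calls in the comparisons with Nadia changed when this pool was left out. The pool was singled out by its values in these same probe sets. Leaving it out therefore narrows the spread within Nadia and moves most of its clock means away from Gaighatta and toward TM1. The changes in calls and p values follow in part from that choice and are given as a description only. Without it, Nadia against Gaighatta had 8 of 10 calls (13.2% of all probe sets), the same probe sets as TM1 against Gaighatta, with rorcb 1.33 higher in Nadia (adjusted p = 0.000269) and ciarta 2.93 lower (adjusted p = 0.000231). SH against Nadia then had 5 (6.26%), with ciarta 1.98 higher in SH (adjusted p = 0.0109), bhlhe41 0.86 higher (adjusted p = 0.0100), nr1d2b 0.49 higher by the brighter probe set, rorcb 1.33 lower (adjusted p = 0.000721) and bmal1a 0.56 lower (adjusted p = 0.0222). TM1 against Nadia then had 0 calls by limma (2.65%). Leaving out M2 also raised SH against Gaighatta to 2 calls (1331 of all 7922 probe sets), with bhlhe41 added. With M2 in place, as the labels have it, these differences within Nadia added to the spread that every strain pair shares.

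The second male pool of SH was also placed at an end of its strain for most clock genes, with 9 of 10 probe sets against 45.0% of all probe sets. Its rorcb value of 5.60 was the highest of SH, and its ciarta value of 5.47 and per2 value of 8.01 were the lowest, so it lay toward TM1 where Nadia M2 lay toward Gaighatta. This pool too was singled out by its values in these same probe sets, so the counts without it are a description only. Without it, TM1 against Gaighatta had 8 calls (1608 of all 7922 probe sets) and TM1 against SH 5 (387 of 7922). Nadia against Gaighatta had 7 (1047 of 7922), SH against Nadia 1 (316 of 7922) and SH against Gaighatta 0 (999 of 7922).

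Across the 16 pools, activators and repressors ran opposite to each other. Of the 15 pairs of an activator and a repressor, all had a negative Pearson r, and 9 had an adjusted p under 0.05 in a two-sided permutation test of 100000 resamples, adjusted over the 15 pairs. Pools were permuted freely across strains, so these p values treat pools of a strain as independent, which they are not. The pooled r also holds the differences between strain means given above. How often other pairs of probe sets correlate this strongly over these pools was not counted, so the 9 of 15 cannot be called many or few. The strongest were rorcb with nr1d2b (r = -0.95, rho = -0.85) and rorcb with ciarta (r = -0.94, rho = -0.89), both with an adjusted permutation p of 5e-05 for r. Bmal1a correlated at -0.92 with ciarta and with bhlhe41 and at -0.85 and -0.84 with per2 and nr1d2b, and rorcb at -0.89 with bhlhe41 and -0.82 with per2. Bmal1b passed with per2 (r = -0.60, rho = -0.60, adjusted permutation p = 0.0253) and with no other repressor. Bhlhe40 passed with none of the activators (r = -0.20 to -0.37).

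Removal of the 2 pools farthest from the activator's median left rorcb with ciarta at -0.92, rorcb with nr1d2b at -0.92 and bmal1a with ciarta at -0.93, whereas bmal1b with per2 dropped to -0.42. The call for bmal1b with per2 was also lost without TM1 M1, Nadia M1 or Gaighatta F1 (r = -0.52 to -0.55, adjusted permutation p = 0.061 to 0.0864). Without TM1 F2, bmal1b passed also with ciarta (-0.61), nr1d2b (-0.59) and bhlhe41 (-0.70), and with bhlhe41 also without TM1 F1 (-0.60) or SH M1 (-0.58). The largest gap between neighbouring values was 0.52 of a range of 2.51 for rorcb, with 9 pools below and 7 above it, and 0.82 of 4.41 for ciarta. No cutoff for separate clusters was set, so the values on each side of the rorcb gap are given too, as a description chosen after seeing the data. Rorcb with ciarta was at -0.55 in the 9 pools below it and -0.96 in the 7 above, and rorcb with nr1d2b at -0.24 below and -0.97 above. Below and above it, rorcb was at -0.48 and -0.33 with per2, -0.37 and -0.36 with bhlhe41, and 0.01 and -0.90 with bhlhe40. Splitting at a gap in rorcb itself narrows its range on each side. These values therefore cannot decide how far the pooled correlations rest on the distance between the low and the high pools.

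**Figure D3:**
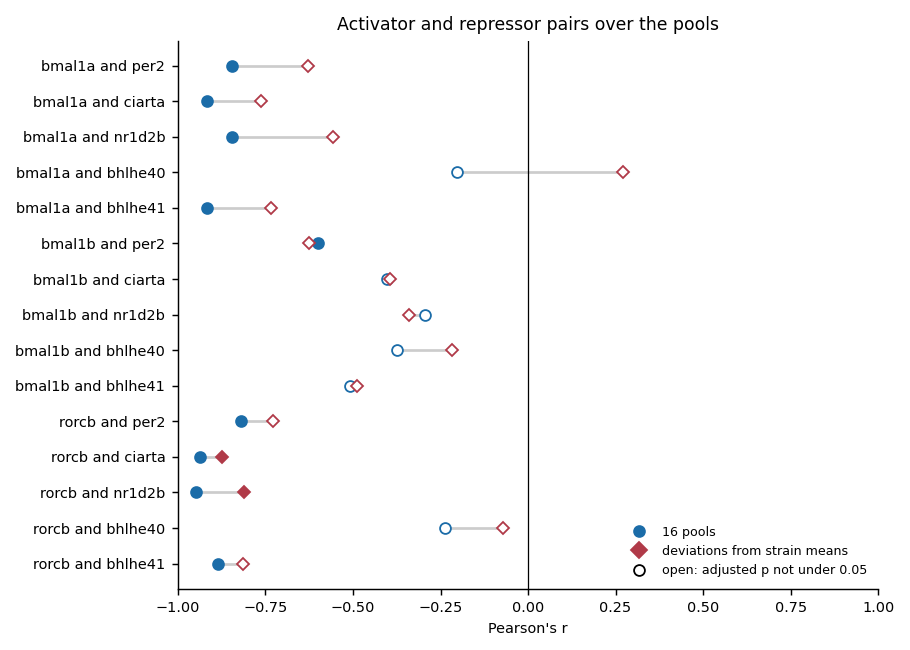
Pearson's r for the 15 pairs of an activator and a repressor over 16 pools (circles) and for deviations from the strain means (diamonds); filled symbols have an adjusted permutation p under 0.05. All circles lie left of 0, 9 of them filled, and 2 diamonds are filled, rorcb with ciarta (-0.88) and rorcb with nr1d2b (-0.81).

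Pools of a strain share their genetic background, so each pair was also examined within strains, by deviations from the strain means permuted within strain. Of the 15 pairs, 14 stayed negative and 2 passed, rorcb with ciarta (r = -0.88, adjusted permutation p = 0.036) and rorcb with nr1d2b (r = -0.81, adjusted permutation p = 0.0434). The pair of bmal1a and bhlhe40 turned to 0.27. Within single strains, where 4 pools are too few for a correlation to be given, the sign was negative in 10 of 15 pairs for TM1, 13 for SH, 13 for Nadia and 10 for Gaighatta. Rorcb and nr1d2b did not run opposite in Gaighatta, where the pool of highest rorcb (5.51) had 10.05 for nr1d2b, next to the highest value of 10.06. Both passing pairs rested on Nadia M2: without that pool the deviations gave -0.66 for rorcb with ciarta (adjusted permutation p = 0.290) and -0.60 for rorcb with nr1d2b (adjusted permutation p = 0.290), and 0 of 15 pairs passed. The correlations of the values themselves did not rest on it, as 9 pairs passed without M2, with rorcb and ciarta at -0.93. The plot of rorcb against ciarta shows both forms of the relation.

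**Figure D4:**
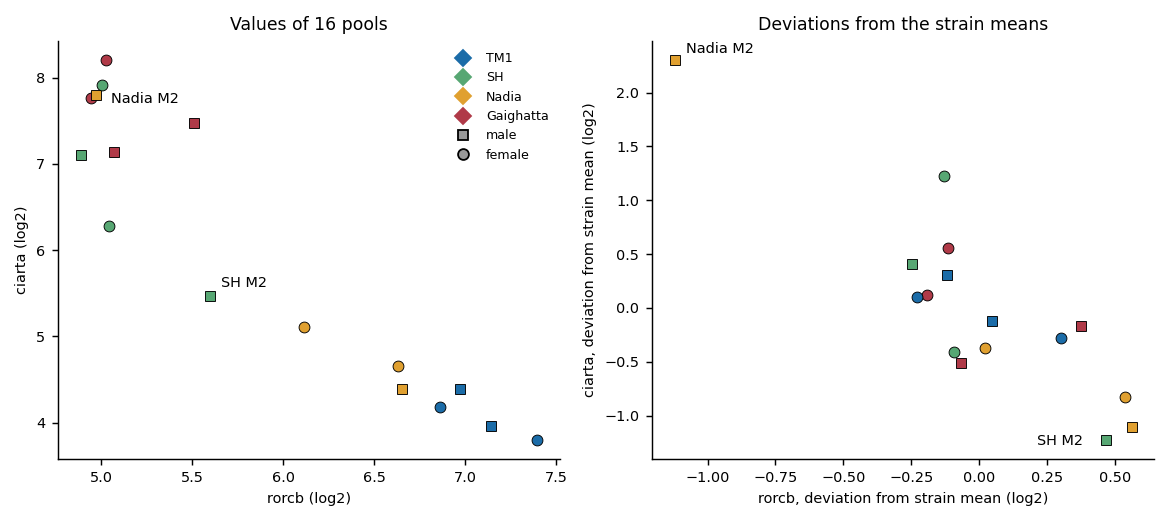
Ciarta against rorcb (both RMA log2), as values of the 16 pools on the left and as deviations from the mean of the pool's strain on the right; colors are strain labels, squares male and circles female pools. On the left the pools run along a falling line from TM1 (rorcb 6.86 to 7.40) to Gaighatta (4.95 to 5.51) with Nadia M2 at the Gaighatta end, and on the right Nadia M2 lies far from the other pools.

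Apart from bmal1b and bhlhe40, genes of the same role rose and fell together over the pools, as a description without a test. Ciarta correlated at 0.97 with bhlhe41, 0.95 with nr1d2b and 0.94 with per2, and per2 at 0.95 with bhlhe41. Of the activators, bmal1a and rorcb correlated at 0.89, whereas bmal1b correlated at 0.35 with bmal1a, its own paralog, and at 0.24 with rorcb. Bhlhe40 correlated at 0.41 with bhlhe41 and at 0.39 to 0.47 with the other repressors. Pools of a strain share their genetic background, so the 16 pools are not independent samples.

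The probe sets whose pattern over the 16 pools was most like that of each clock gene, by Pearson r among all with a gene symbol, included other clock genes. Closest to rorcb was nfil3-5 (0.968), a relative of mammalian Nfil3, which represses at D-box elements. Next came impdh1b (0.922), an enzyme of guanine nucleotide synthesis, and bmal1a (0.885). Most opposite to rorcb were cry1a (-0.955), nr1d2b and znf395b (both -0.947). For bmal1a the closest were impdh1b (0.935), nfil3-5 (0.934) and bada (0.889), the last a cell death regulator of the Bcl2 family, and the most opposite were ciarta (-0.918), bhlhe41 (-0.917) and cry-dash (-0.911).

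Among the repressors, ciarta was most like ddb2 (0.978), which recognizes DNA damage by ultraviolet light, then znf395b and bhlhe41 (both 0.972), and most opposite to rorcb (-0.938), nfil3-5 (-0.936) and bmal1a (-0.918). Bhlhe41 had ciarta (0.972), per2 (0.950) and znf395b (0.946) closest, and bmal1a (-0.917), nfil3-5 (-0.905) and rorcb (-0.885) most opposite. Nr1d2b was closest to csnk1db (0.959), a casein kinase that phosphorylates period proteins, gnb5b (0.952), a G protein subunit, and ciarta (0.948), and opposite to rorcb (-0.947), nfil3-5 (-0.939) and impdh1b (-0.886). Per2 was closest to LOC567909 (0.963), bhlhe41 (0.950) and cry-dash (0.949), and opposite to bmal1a (-0.846), pola2 (-0.830) and setd6 (-0.828).

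Bmal1b and bhlhe40 had other neighbours. Bmal1b was most like the probe sets of dlgap4a (0.819 and 0.801), a scaffold protein of synapses, and of ubb (0.784), and most opposite to tox4b (-0.850), nell2a (-0.841) and riok1 (-0.817). Bhlhe40 was most like bco2a (0.889), which cleaves carotenoids, mycn (0.866) and eif3s10 (0.862), a translation initiation factor, and most opposite to ptrhd1 (-0.837), ddx23 (-0.833) and pacc1 (-0.825). No clock gene of the 8 was among the neighbours of either.

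Of the other genes of the pathway, 22 had a probe set in the table, and 17 of them differed among the strains by the same rule, against 34.6% of all probe sets. These 22 genes come from a list of clock partners, cryptochromes and photolyases, receptors, output factors and modifying enzymes. The list also named other period genes and other repressors, but no tested probe set with 1 gene symbol matched them. This list was also chosen with earlier results of these data known. The single Clock partner measured, clockb, went with the activators, at 5.73 ± 0.25 in TM1 and 4.74 ± 0.23 in Gaighatta (SD, n = 4 each), a difference of 0.99 (adjusted p = 0.000400). It was also higher in TM1 than in SH and Nadia (0.73 and 0.86). The single orphan receptor, nr1d2a, a paralog of nr1d2b, did not pass in any pair (TM1 against Gaighatta -0.55, adjusted p = 0.198). Its largest strain difference was 0.90, between means of 5.45 in SH and 4.54 in TM1.

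Cryptochromes fell into opposite groups, with 7 of 8 called (34.6% of all probe sets). Cry-dash, a light-dependent relative of photolyases, differed by -2.03 between TM1 and Gaighatta, with cry1b 1.06 lower, cry2 0.77 lower and cry1a 0.65 lower, the last 3 being relatives of the mammalian repressors of Bmal and Clock. Cry5, named as the 6-4 photolyase of zebrafish, was 0.64 lower in TM1 than in Gaighatta, and Gaighatta was higher at the threshold than each of the other strains. Cry3b and cry3a moved the other way, at 1.07 and 0.51 higher in TM1. Cry4 passed in no pair (0.30 between TM1 and Gaighatta, adjusted p = 0.221).

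Of the bZIP output factors, 3 of 4 were called (34.6% of all). Nfil3-5 was at 9.28 ± 0.40 in TM1, 7.47 ± 0.38 in SH, 8.33 ± 0.85 in Nadia and 7.16 ± 0.18 in Gaighatta (SD, n = 4 each), a difference of 2.13 between TM1 and Gaighatta (adjusted p = 0.000222). Tefa and tefb, activators at D-boxes and thus opposed to Nfil3, were 0.80 and 0.87 lower in TM1 than in Gaighatta. Nfil3-6, its paralog, was at -0.54 between TM1 and Gaighatta and passed in no pair (adjusted p = 0.134).

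Of the kinases, ligase subunits and a deubiquitinase, 6 of 8 were called (34.6% of all). The casein kinases csnk1da and csnk1db, which phosphorylate period proteins, were 0.46 and 0.40 lower in TM1 than in Gaighatta, and gsk3ba, another clock kinase, was 0.74 lower. Fbxl3a and fbxl3b, paralogs of the ligase subunit that targets cryptochromes for degradation, were 0.85 and 0.50 higher. Usp2a, a deubiquitinase, passed only between Nadia and Gaighatta (-0.65, adjusted p = 0.0210). The kinase genes csnk1e and csnk2a1 passed in no pair by the probe sets of highest mean, although a second probe set of csnk2a1 did (1.22 between Nadia and Gaighatta). In all, 16 of the 22 differed between TM1 and Gaighatta (20.9% of all probe sets), 6 higher (8.27%) and 10 lower (12.6%) in TM1. Nadia M2 was the highest or lowest Nadia pool in 20 of 22 (54.7% of all), and SH M2 that of SH in 16 of 22 (45.0%).

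**Figure D5:**
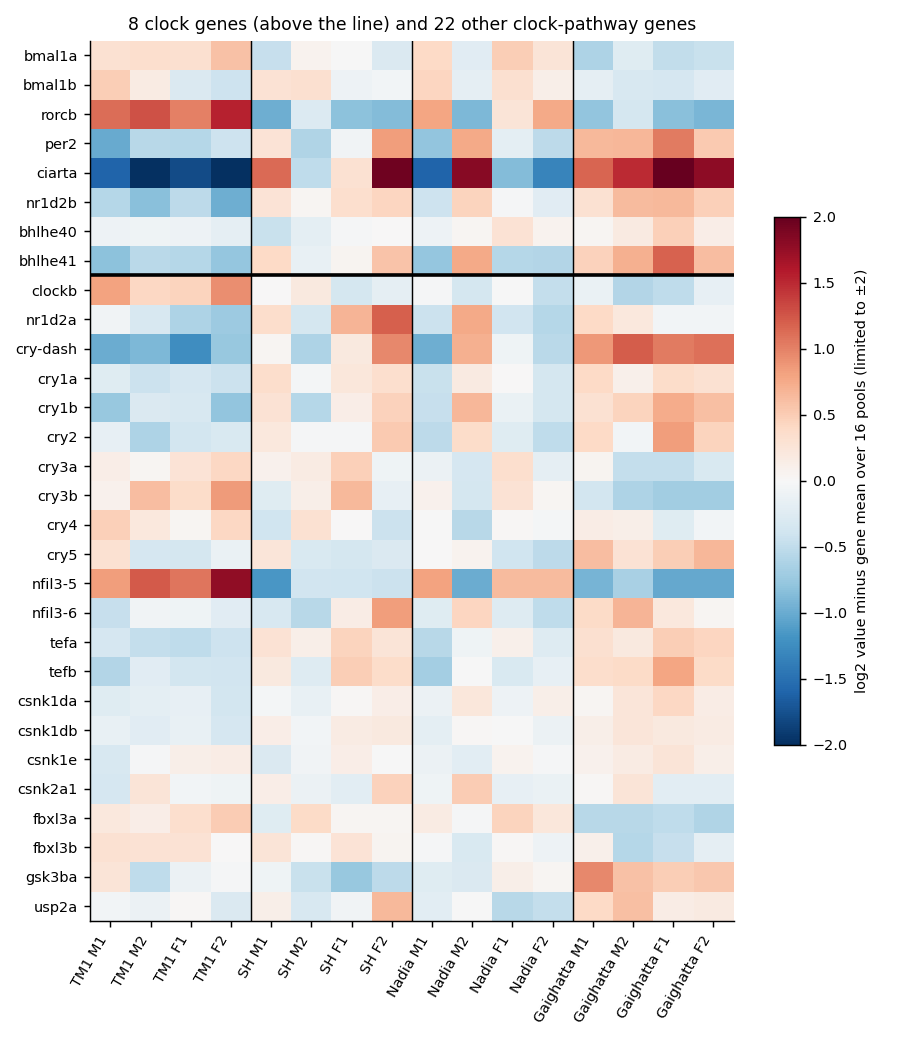
Log2 value minus the gene's mean over the 16 pools (color, limited to ±2), for the 8 clock genes above the line and 22 other genes of the pathway below it, in pools ordered by strain with male before female pools. TM1 and Gaighatta show opposite colors for rorcb, ciarta, nfil3-5 and cry-dash, and Nadia M2 departs from the other 3 Nadia pools, with ciarta at 7.79 against a mean of 4.72.

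By rearing history, 2 of the 10 clock probe sets differed between Domesticated and Wild labels, against 12.8% of all probe sets. Domesticated and Wild follow the deposited strain labels here. Under the names of the study's listings, where the GFP signal falls in TM1, each direction in this paragraph is the reverse. Nr1d2b was at 9.19 ± 0.56 in the 8 Domesticated pools and 9.65 ± 0.40 in the 8 Wild pools by the brighter probe set (SD, difference -0.46, SE 0.11, adjusted p = 0.0148). The dimmer probe set of nr1d2b did not pass (-0.35, limma adjusted p = 0.147). Bhlhe40 was at 10.26 ± 0.14 in Domesticated and 10.55 ± 0.18 in Wild pools (difference -0.28, SE 0.08, adjusted p = 0.0330). The ranges of Domesticated and Wild pools overlapped for both genes, from 8.44 to 9.85 and from 8.997 to 10.06 for nr1d2b, and from 9.97 to 10.41 and from 10.31 to 10.89 for bhlhe40. Each history comprises 2 strains, and with strain as a random block, or with the 4 strain means as the samples, 0 of 10 passed by limma. The larger differences for ciarta (-1.18, adjusted p = 0.0745), rorcb (0.50, adjusted p = 0.112) and per2 by the brighter probe set (-0.53, adjusted p = 0.109) did not pass. Neither did the dimmer probe set of per2 (-0.25, limma adjusted p = 0.415). Bhlhe41 (-0.45, limma adjusted p = 0.120), bmal1a (0.22, adjusted p = 0.196) and bmal1b (0.10, adjusted p = 0.628) did not pass either. The call for bhlhe40 was lost without any 1 of 6 pools (TM1 F2, SH M1, SH M2, Nadia F1, Nadia F2 or Gaighatta F1; adjusted p = 0.0531 to 0.0671). Without SH F2, ciarta (-1.38, adjusted p = 0.0415) and per2 by the brighter probe set (-0.65, adjusted p = 0.0457) passed, and ciarta passed without Nadia M1 (-1.36, adjusted p = 0.0491). Of the 22 other pathway genes 8 passed with pools as the samples (12.8% of all), with clockb (0.56), cry3a, cry3b, fbxl3a and fbxl3b higher in Domesticated and cry-dash (-0.83), gsk3ba (-0.55) and csnk1da lower. With strain as a random block, and with the 4 strain means, 0 of the 22 passed by limma, where over all probe sets 31 and 0 passed. Within each history the strains lay apart, as rorcb differed by 1.96 between TM1 and SH and by 0.95 between Nadia and Gaighatta.

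The sexes did not differ at the threshold in any clock gene. Of the 10 probe sets 0 passed for Male against Female by limma, against 0.151% of all probe sets, and 2 had an unadjusted p under 0.05. These were bmal1b, 0.25 higher in males (SE 0.09, 95% interval 0.05 to 0.45, adjusted p = 0.333), and bhlhe40, 0.17 lower in males (95% interval -0.33 to -0.01, adjusted p = 0.379). For ciarta the interval of the sex difference ran from -0.95 to 0.89, so only differences beyond that were excluded, and for rorcb it ran from -0.48 to 0.42. The interaction of strain and sex passed in 0 of 10 by limma (0.0757% of all probe sets; adjusted p = 0.993 for each).

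Markers of cell types that a brain dissection can hold also differed between TM1- and Gaighatta-labelled pools, the strain pair with the highest count of clock calls. The list means of neurons ran from 10.36 to 10.69 in TM1 and from 10.85 to 11.02 in Gaighatta, and those of microglia from 6.94 to 7.59 in TM1 and from 6.45 to 6.77 in Gaighatta. Radial glia ran from 10.22 to 10.59 in TM1 and from 10.61 to 10.71 in Gaighatta. Myelin ran from 7.81 to 8.16 in TM1 and from 8.19 to 8.32 in Gaighatta. So 4 of the 8 lists did not overlap in this pair, with narrow gaps for radial glia (10.59 against 10.61) and myelin (8.16 against 8.19). By limma 20.9% of all probe sets differed in this pair, but that share counts calls and not overlap. How often other lists or single probe sets overlap was not counted, so the 4 of 8 cannot be called many or few. By strain mean, glula (10.87 in TM1, 11.61 in Gaighatta) and slc1a2b (11.85, 12.20) were lower in TM1. Other radial glia genes, fabp7a (11.47, 11.35) and gfap (6.81, 6.62), were higher in TM1, and gja1b was nearly level (11.49, 11.53). Of the myelin genes, cldnk was lower in TM1 (9.21, 9.60) and mbpb nearly level (6.88, 6.92). For the pineal gland and photoreceptors, tissues with strong clocks in fish, the list means of 8 genes ran from 5.86 to 6.30 in TM1 and from 4.63 to 6.31 in Gaighatta. Of these 8 genes, 2 passed in at least 1 strain pair (34.6% of all probe sets did), pde6ha and rpe65a, with pde6ha 2.48 higher and rpe65a lower in TM1 than in Gaighatta. Over the 16 pools, the 8 marker lists correlated with ciarta at -0.58 to 0.58 and with rorcb at -0.62 to 0.65. Their part in the clock values was not tested.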

How the data were processed

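Brain RNA of 16 pools was measured on Affymetrix Zebrafish Genome Arrays from 10 µg of total RNA each. The deposited values are log2 expression, which the authors obtained by RMA in affy (background correction, quantile normalization and probe summary; the sources used here give no version), and the table holds 7958 probe sets. The methods name filters on absent calls and on an interquartile range under 0.5, but of 7922 tested probe sets only 854 reach 0.5 here, so the table did not pass that second filter as stated. The methods also name a filter on probe-level polymorphism, which was not applied here, so sequence differences between strains can shift a probe set. Values ran from 2.27 to 13.23, with array medians of 6.08 to 6.20, and 0 columns were identical. The number of arrays limits the precision.

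After removal of 36 control probe sets, 7922 were tested, of which 5639 carried 1 gene symbol, 54 several and 2229 none. The model of strain means (limma 3.58.1, R 4.3.3) used contrasts for 6 strain pairs and for Domesticated minus Wild, and sex was tested in the crossed model of strain and sex, all with eBayes moderation and Benjamini-Hochberg adjustment within each contrast over all probe sets and 0.05 as the threshold. Correlations were tested in numpy 2.4.6 by 100000 permutations of pools, or within strain for deviations from strain means, with one probe set per gene, that of highest mean. The smallest p that they can give is 1e-05. Scripts were tested on simulated data.

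The members, the pathway list and the marker lists were chosen with earlier results of these data known. Named were all member probe sets, each pathway gene with a strain difference, and the 3 most and 3 least alike probe sets per member. Pools were grouped by the labels, and pools of a strain came from separate tanks. Alternatives covered the probe sets tested, scaling, variance model, covariates, samples, strain as a block and each pool left out. No genome build is named for the probe sets, so no positions are given.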

Additional observations from a re-analysis of the deposited data

Results flagged for a closer look

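Pools that lay far from the others of their group were looked for in 80 groups (each probe set by strain, rearing history and sex), and 5 were found. Chance flags about 1 in 20 groups. Bhlhe41 was at 9.76 in Nadia M2, the highest Nadia pool, where the other 3 lay between 8.23 and 8.44. This pool was the highest or lowest of Nadia in 9 of 10 clock probe sets, against 54.7% of all probe sets tested. SH M2 was that of SH in 9 of 10 as well (45.0% of all). Bmal1a was at 7.17 in the second female pool of TM1, the highest of that strain, and bhlhe40 was at 10.23 in the same pool, the lowest. Bhlhe40 was at 9.97 in the first male pool of SH, the lowest of the 8 Domesticated pools. Nr1d2b, by its dimmer probe set, was at 8.06 in the second male pool of SH, the lowest of that strain.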

How the results depend on the processing

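The 9 of 10 clock probe sets differing among strains and the 17 of 22 pathway genes stayed within 1.5 times of these counts under every alternative, at 7 to 9 and 15 to 18 with single pools left out. Testing only probe sets with an interquartile range of at least 0.5, which leaves fewer to test and drops bhlhe40, gave 2 calls for TM1 against Nadia, 1 for SH against Nadia, 0 for SH against Gaighatta and 1 for rearing history. With only the pools of the 2 strains compared, TM1 against Nadia had 0 and Nadia against Gaighatta 1 call, and the robust variance model gave 3 for Nadia against Gaighatta. Rearing history had 0 calls with strain as a random block and 0 with the 4 strain means, among the members and among the pathway genes, of which 5 passed with the interquartile range minimum and 6 to 8 with single pools left out (for the pathway genes, alternatives chosen after seeing the data). Of 15 correlations, 2 passed as deviations from strain means and 0 as deviations without Nadia M2, an alternative chosen after seeing the data. With single pools left out, calls ranged from 3 to 6 for TM1 against SH, 0 to 2 for TM1 against Nadia, 7 to 9 for TM1 against Gaighatta, 0 to 5 for SH against Nadia, 0 to 2 for SH against Gaighatta, 1 to 8 for Nadia against Gaighatta and 1 to 4 for rearing history, and correlations from 8 to 12. The causes were not tested otherwise. No direction reversed among the results with a call. Replicate numbers did not pair the pools (correlations of deviations -0.29 to 0.307 over 28 pairs of groups, 6 above 0.1), and the replicate block left 9 calls among strains and 2 by rearing history.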
